A study of Saccharomyces cerevisiae with 4 samples.

Results

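The genes described here are the 32 budding yeast (Saccharomyces cerevisiae) genes that encode the enzymes of glycolysis and alcoholic fermentation, from the sugar kinases to the acetaldehyde dehydrogenases. They were chosen by locus tag from the 6207 gene rows of the deposited table. The rule uses no measured value, but the members were chosen with earlier results of these data known. All 32 had a value on every array. The series compared loc1 knockout cells (strain PSY3262 per the labels) with wild-type cells (strain PSY3259) on 4 microarrays of 2 colours, each holding 1 knockout and 1 wild-type culture. Both kinds of cell were grown in 50 mL of rich glucose medium (YPD) to early log phase, at an optical density of 0.2 to 0.4 and 30 °C, and the sources used here do not give the full genotypes. Per the labels the 4 arrays were separately processed biological replicates, with the knockout in Cy5 on arrays 1 and 4 and in Cy3 on arrays 2 and 3. On array 4 the strain named for the wild-type channel is the knockout one, but the RNA is described there as wild type, and this description was followed.

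Glycolysis splits glucose into pyruvate in the cytosol, and yeast growing on glucose turns most of that pyruvate into ethanol through pyruvate decarboxylase and alcohol dehydrogenase. Many steps have several isozymes: 1 strongly expressed form carries most of the flux on glucose, while others are made at low level, under stress or when glucose runs out. The strongly expressed genes are known to be driven by the transcription factors Rap1, Gcr1 and Gcr2, and their mRNAs are among the most abundant of the cell. LOC1 itself encodes a nuclear RNA-binding protein of large ribosomal subunit assembly and of ASH1 mRNA localization.

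All values are log ratios of knockout over wild type, in deposited log units. The log base, unstated in the sources used here, was taken as 10 from the values alone, so folds are given "if base 10". Every array was turned so that LOC1 (YFR001W) lay below 0, which placed it at -1.20, -0.972, -1.07 and -1.31 on arrays 1 to 4. LOC1 was thus turned by its own values, and its size, not its sign, is the measurement. This direction is likely but not settled by the dyes. Arrays 1 and 4 share a labelled dye orientation, but across the 32 genes their deposited values had r = -0.766. Arrays 2 and 3 share the other orientation and had r = -0.867. The other 6146 genes with full values below the limit of the scale gave -0.772 and -0.710 for the same pairs of arrays. These correlations are across genes, which are not independent replicates. If the opposite sign were taken, all rises and falls given here would swap: 3 of the 32 genes would be lower and 19 higher, and a rank from the lowest becomes a rank from the highest. When the dye labels set the direction of each array, 0 of the 32 genes passed in limma, 0 had an unadjusted p under 0.05, and 1 gene of all 6205 tested passed. LOC1 did not pass, as this setting put it below 0 on arrays 1 and 2 and above 0 on arrays 3 and 4. A change shared by all 4 arrays cancels there, so the 0 is no check on the 32 genes.

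Messenger RNAs of glycolysis and fermentation were mostly lower in the knockout. Of the 32 genes 19 fell, 3 rose and 10 did not pass the threshold of an adjusted p of 0.05 (limma, adjusted over all 6205 genes tested). Over all genes 21.7% fell, 22.5% rose and 44.2% passed in either direction, against 59.4% and 9.38% of the 32 genes lower and higher. ADH1, PGK1, ENO2 and ADH2 were past 2-fold if base 10, and the other changes were smaller. Because the members were chosen with earlier results of these data known, the counts describe the genes and no test was made over them. The count of falls lay between 16 and 18 with any 1 array left out, and the count of rises was 2 without array 1 and 1 without array 2, 3 or 4. The share of all genes called was not counted in those fits, for these genes or for the lists below. On arrays 1 and 2 alone 14 fell and 0 rose in limma, where 8.93% of all genes fell and 10.2% rose. At an unadjusted limma p under 0.05, 18 fell and 1 rose on these arrays. The share of all genes at that unadjusted p was not counted. On arrays 3 and 4 alone 17 fell and 3 rose, where 24.5% of all genes fell and 22.2% rose.

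The shift was present on each array. The medians of the 32 genes were -0.135, -0.110, -0.109 and -0.123 on arrays 1 to 4, against medians between -0.0119 and 0.0107 over all gene rows. Between 23 and 25 of the 32 genes lay below 0 on each array, against 46.4% (array 2) to 54.0% (array 4) of all gene rows. Of the 32, 19 were below 0 on all 4 arrays and 4 above 0 on all 4, so that 23 kept 1 sign. Over all genes 28.0% were below and 28.5% above 0 on every measured array, 56.6% in all. Turning the arrays on these data builds part of such concordance in. The median of the gene means was -0.134 for the 32 genes and 0.0019 for all genes tested.

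**Figure D1:**
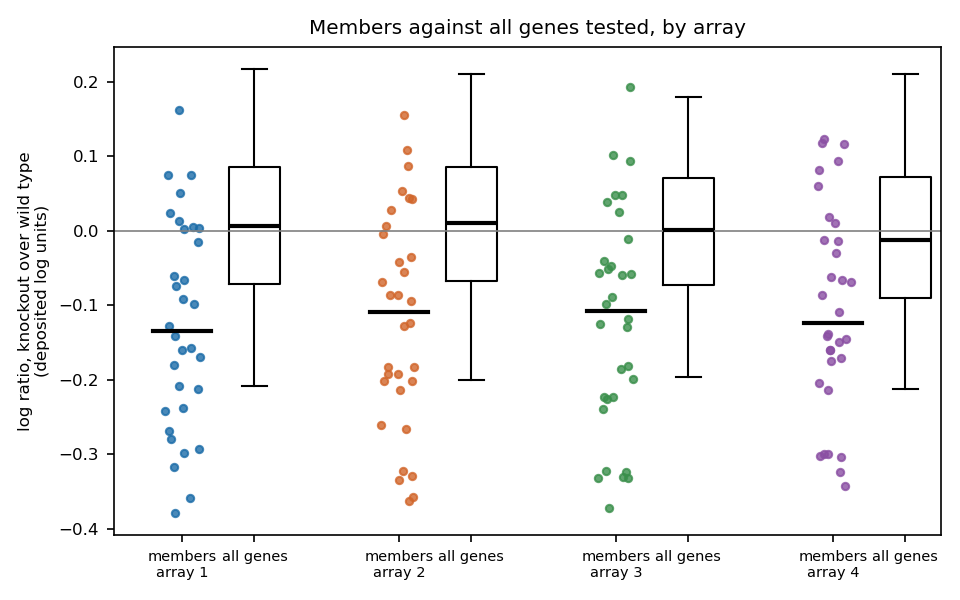
Log ratio of knockout over wild type in deposited log units (vertical axis) for the 32 genes (points, 1 per gene, horizontal spread added for visibility) and for all genes tested (boxes with quartiles, whiskers from the 5th to the 95th percentile), on arrays 1 to 4. Black lines are medians, which run from -0.135 to -0.109 for the 32 genes and lie near 0 for all genes.

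The first step adds phosphate to the sugar, and its main enzyme on glucose, hexokinase 2, showed no difference past the threshold. HXK2 (YGL253W), which also acts in glucose repression, had -0.0155, 0.0433, -0.0517 and -0.0135 on arrays 1 to 4 (mean -0.00935 ± 0.0392, SD, n = 4, as for every ± below), so the arrays lay on both sides of 0. Its paralog HXK1 (YFR053C) had -0.0915, -0.127, -0.0106 and 0.0819, again on both sides of 0 (adjusted p = 0.428). The glucokinase gene GLK1 (YCL040W) had -0.270, -0.323, -0.0978 and 0.0181, with a mean of -0.168 ± 0.157 and adjusted p = 0.0319. Its spread was the widest of the 32 genes, with arrays 1 and 2 low and array 4 at about 0. The call was lost without array 1 (-0.134, adjusted p = 0.130) and without array 2 (-0.116, adjusted p = 0.0934). EMI2 (YDR516C), the paralog of GLK1, fell evenly, at -0.212, -0.182, -0.186 and -0.170 (mean -0.188 ± 0.0177, 1.54-fold lower if base 10, adjusted p = 0.00053).

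The next enzymes of upper glycolysis were lower on every array. PGI1 (YBR196C), the isomerase that converts glucose phosphate into fructose phosphate, fell by 0.123 ± 0.0364 log units, and its array 2 value of -0.0694 was the closest to 0. Phosphofructokinase, a main control point of the pathway, is built of 2 kinds of subunit, and the genes of both fell. PFK1 (YGR240C) had -0.208, -0.214, -0.199 and -0.161 (mean -0.195 ± 0.0239, 1.57-fold lower if base 10, adjusted p = 0.000497). PFK2 (YMR205C) had -0.0981, -0.192, -0.239 and -0.145 (mean -0.169 ± 0.0606, adjusted p = 0.00245). The subunit genes therefore had similar means with a wider spread in PFK2.

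The genes of the kinases that make the allosteric activator of phosphofructokinase went the other way or did not pass. PFK27 (YOL136C) had 0.00179, 0.156, 0.193 and 0.116, with a mean of 0.117 ± 0.0828 and adjusted p = 0.0221. Array 1 stood apart near 0, and the call was lost without array 2 (0.104, adjusted p = 0.0592), array 3 (0.0912, adjusted p = 0.0968) or array 4 (0.117, adjusted p = 0.0581). PFK26 (YIL107C) had 0.0132, -0.00496, 0.0478 and 0.0931, at adjusted p = 0.254.

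**Figure D2:**
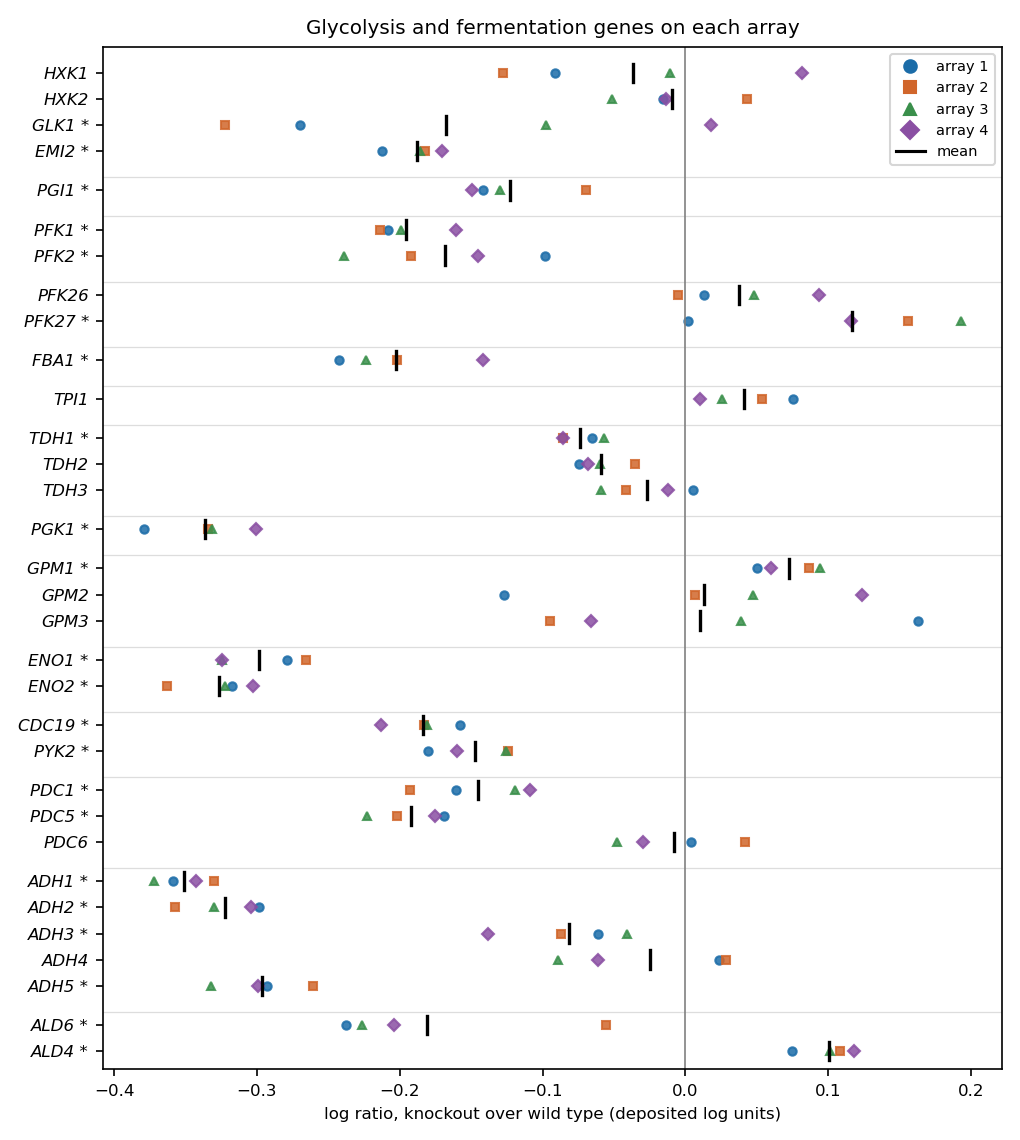
Log ratio of knockout over wild type in deposited log units (horizontal axis) for the 32 genes in pathway order from top to bottom, with 1 symbol per array, a black bar at the mean and grey lines between steps. An asterisk marks an adjusted p under 0.05. ADH1, PGK1, ENO2, ADH2, ENO1 and ADH5 have the lowest means, and PFK27 (0.00179 on array 1), TPI1, GPM1 and ALD4 lie above 0 on all 4.

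In the middle of the pathway, neighbouring steps differed. FBA1 (YKL060C), the single aldolase gene, had -0.243, -0.202, -0.224 and -0.142 (mean -0.203 ± 0.0437, 1.59-fold lower if base 10, adjusted p = 0.00069). TPI1 (YDR050C), the triose phosphate isomerase that interconverts the aldolase products, had 0.0751, 0.0532, 0.0257 and 0.0103, above 0 on all arrays but not past the threshold (adjusted p = 0.178). All 4 arrays placed FBA1 below TPI1.

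The glyceraldehyde-3-phosphate dehydrogenase genes showed small values. TDH3 (YGR192C), the most strongly expressed of these genes, had 0.00555, -0.0416, -0.0588 and -0.0126 (mean -0.0269 ± 0.0288, adjusted p = 0.369). TDH2 (YJR009C) had a mean of -0.0594 ± 0.0172 and was below 0 on every array, at adjusted p = 0.0561, and at adjusted p = 0.0453 once each array was centred on its median. TDH1 (YJL052W), the isozyme linked to stationary phase, fell by 0.0736 ± 0.0147 (adjusted p = 0.0254), the tightest spread of the 32 genes. Its call was lost when any 1 array was left out, at means from -0.0792 to -0.0694 and adjusted p = 0.0592 to 0.0903.

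PGK1 (YCR012W), the phosphoglycerate kinase that follows directly and makes the first ATP of the pathway, had a far larger fall. Its values were -0.379, -0.334, -0.332 and -0.300, with a mean of -0.336 ± 0.0323 (2.17-fold lower if base 10, adjusted p = 6.11e-05). On each array PGK1 lay below all 3 TDH genes, and over all 6205 genes its mean ranked 81 from the lowest.

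No gene of the phosphoglycerate mutase step fell. GPM1 (YKL152C), the gene of the functional mutase, rose slightly, with 0.0501, 0.0868, 0.0939 and 0.0601 (mean 0.0727 ± 0.021, 1.18-fold higher if base 10, adjusted p = 0.0289). That call was lost when any 1 array was left out, at means from 0.0656 to 0.0803 and adjusted p = 0.0524 to 0.122. GPM2 (YDL021W) and GPM3 (YOL056W), homologs without a known role in growth on glucose, had array values from -0.127 to 0.123 and from -0.095 to 0.163. Both scattered on either side of 0, with adjusted p = 0.814 and 0.865.

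Enolase and pyruvate kinase, the closing steps of glycolysis, were lower for main and minor gene alike. ENO2 (YHR174W), the enolase gene induced by glucose, had -0.317, -0.363, -0.322 and -0.303 (mean -0.326 ± 0.0256, 2.12-fold lower if base 10, adjusted p = 6.11e-05). ENO1 (YGR254W), its nearly identical paralog, had -0.279, -0.266, -0.325 and -0.325 (mean -0.299 ± 0.0306, 1.99-fold lower if base 10). The ranges of these paralogs overlapped. CDC19 (YAL038W), the main pyruvate kinase, had -0.158, -0.183, -0.181 and -0.213 (mean -0.184 ± 0.0228, 1.53-fold lower if base 10, adjusted p = 0.000636). PYK2 (YOR347C), the glucose-repressed pyruvate kinase, fell by 0.147 ± 0.0274 (adjusted p = 0.0017), and its 4 arrays also overlapped those of CDC19.

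Pyruvate decarboxylase opens the fermentative branch, and 2 of its 3 genes fell. PDC1 (YLR044C), the main form, had -0.161, -0.193, -0.119 and -0.109 (mean -0.145 ± 0.0388, 1.40-fold lower if base 10, adjusted p = 0.00245). PDC5 (YLR134W), known to be induced when PDC1 is missing, had -0.169, -0.202, -0.223 and -0.175 (mean -0.192 ± 0.0249, adjusted p = 0.000543). PDC6 (YGR087C), a minor form linked to sulfur limitation, had 0.00412, 0.0419, -0.0477 and -0.0301, on both sides of 0 (adjusted p = 0.815).

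Alcohol dehydrogenase held the deepest fall of the 32 genes. ADH1 (YOL086C), which reduces acetaldehyde to ethanol during fermentation, had -0.359, -0.330, -0.372 and -0.343 on arrays 1 to 4 (mean -0.351 ± 0.0183, 2.24-fold lower if base 10, adjusted p = 4e-05), and its mean ranked 67 from the lowest of 6205 genes. ADH2 (YMR303C), the glucose-repressed form that oxidizes ethanol, had -0.299, -0.357, -0.330 and -0.304 (mean -0.323 ± 0.0269, 2.10-fold lower if base 10). ADH5 (YBR145W) had -0.293, -0.261, -0.332 and -0.299 (mean -0.296 ± 0.0291, 1.98-fold lower if base 10). These 3 genes encode closely related proteins. ADH1 and ADH2 are near-identical in sequence, as are ENO1 and ENO2 and TDH2 and TDH3. Probe sequences were not used here, so such copies may share signal, and whether a fall of ADH2 or ENO1 is its own was not tested.

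The other alcohol dehydrogenase genes had values nearer 0. ADH3 (YMR083W), the mitochondrial form, fell by 0.0819 ± 0.0421 (adjusted p = 0.0284), and the call was lost without array 1 (-0.0887, adjusted p = 0.0588), array 2 (-0.0802, adjusted p = 0.059) or array 4 (-0.063, adjusted p = 0.122). ADH4 (YGL256W), which belongs to an unrelated protein family, had 0.0235, 0.0283, -0.0895 and -0.0616 (adjusted p = 0.499), with arrays 1 and 2 above 0 and arrays 3 and 4 below.

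The acetaldehyde dehydrogenases, which lead to acetate, differed in direction. ALD6 (YPL061W), the main cytosolic form, had -0.237, -0.0558, -0.226 and -0.204 (mean -0.181 ± 0.0845, 1.52-fold lower if base 10, adjusted p = 0.00374), with array 2 much nearer 0 than the rest. ALD4 (YOR374W), the mitochondrial form, had 0.0743, 0.108, 0.101 and 0.118 (mean 0.1 ± 0.0186, 1.26-fold higher if base 10, adjusted p = 0.00782). The arrays of these genes did not overlap.

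Genes of the same step were then set against each other within each array, as the difference of their log ratios in 18 pairs. In 16 the main isozyme was set against a minor one, and the other pairs were the phosphofructokinase subunits (PFK1 and PFK2) and the kinases of its activator (PFK26 and PFK27). Such a difference shows unequal change and not the levels of the genes. With 4 arrays an exact sign-flip permutation test, two-sided, has 16 sign patterns and its smallest p is 12.5%, so no pair could pass, and all pairs had an adjusted p of at least 0.321 by this exact test. In 7 pairs the difference had the same sign on all 4 arrays, which gives that smallest value. Pairs among them that share ADH1 or PDC1 are not independent of each other.

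The widest of these 7 were among the alcohol dehydrogenase and acetaldehyde dehydrogenase genes. ADH1 minus ADH4 was -0.382, -0.358, -0.282 and -0.281 on arrays 1 to 4 (mean -0.326 ± 0.0521), and ADH1 minus ADH3 was -0.298, -0.243, -0.331 and -0.204 (mean -0.269 ± 0.0563). ALD6 minus ALD4 was -0.312, -0.164, -0.328 and -0.322 (mean -0.281 ± 0.0786). In these pairs the main cytosolic enzyme gene was the lower one by a factor of 1.86 to 2.12 if base 10. PDC1 minus PDC6 (-0.137 ± 0.0776) ran the same way, and so did the narrow gap of ADH1 minus ADH5 (-0.0546 ± 0.0151).

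The remaining pairs of the 7 ran the other way. HXK2 minus EMI2 was 0.197, 0.226, 0.134 and 0.157 (mean 0.178 ± 0.0408), so the minor gene was the lower one, and PDC1 minus PDC5 had a mean of 0.0468 ± 0.0468. In the other pairs at least 1 array differed in sign. Their mean differences ran from -0.0793 for PFK26 minus PFK27 to 0.159 ± 0.183 for HXK2 minus GLK1, and for ENO2 minus ENO1, ADH1 minus ADH2 and PFK1 minus PFK2 they were -0.0277 ± 0.0524, -0.0283 ± 0.0383 and -0.027 ± 0.0618.

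**Figure D3:**
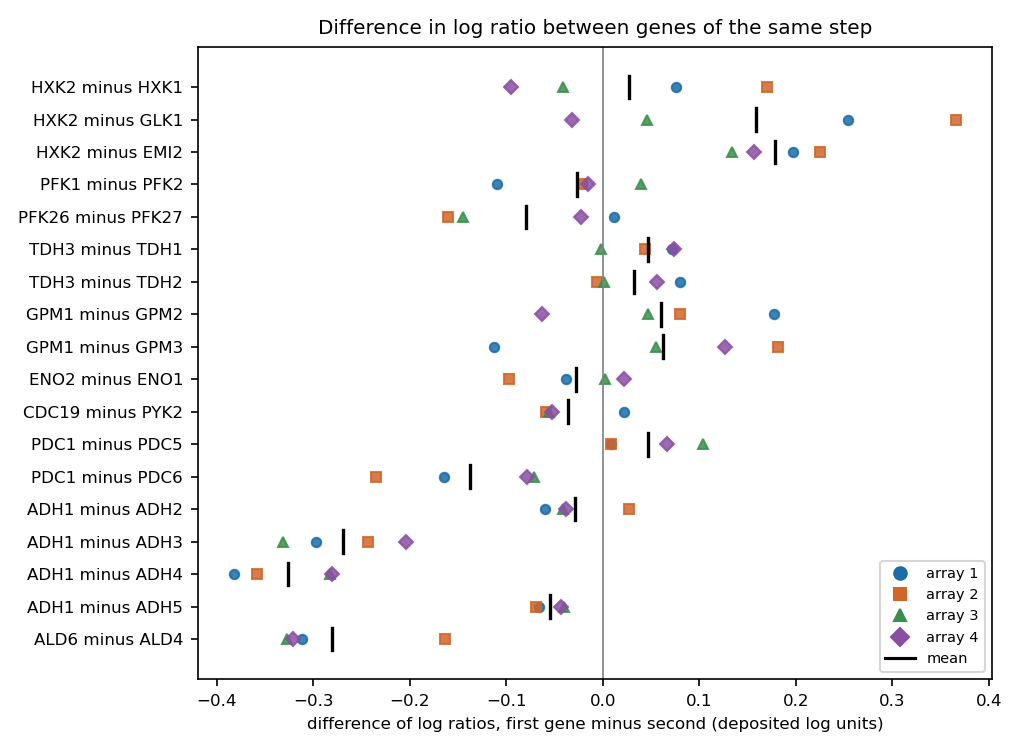
Difference of log ratios between 2 genes of the same step (first minus second, horizontal axis, deposited log units) for the 18 pairs, with 1 symbol per array and a black bar at the mean. ADH1 minus ADH4, ADH1 minus ADH3 and ALD6 minus ALD4 are below 0 on all 4 arrays, and HXK2 minus EMI2 is above 0 on all 4.

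Grouped by role, 10 of the 14 main, single-copy and subunit genes fell and 1 rose, with a median of -0.175. Of the 16 minor isozymes 9 fell and 1 rose, with a median of -0.0777. Over all genes tested 21.7% fell and 22.5% rose, with a median of 0.0019. The role groups were set by textbook knowledge and the difference between them was not tested. The 3 genes with an SD over 0.1 (GLK1, GPM2 and GPM3) were all minor forms, and the median SD was 0.0314 for the 32 genes and 0.0505 for all genes tested. Across the 32 genes the turned arrays correlated at r = 0.766 to 0.937 over 6 pairs of arrays, a description only, since the turning shares in it.

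A term for the direction in which each column was deposited was fitted beside the mean. A constant dye effect would appear there only if every column held the same dye over the other. By the dye labels it would follow a different pattern of arrays. No term for that pattern was fitted beside the mean, so a dye effect that follows the labels was not tested. In limma the fitted term passed for 0 of the 32 genes and 0 of all 6205, with 1 and 48 genes at an unadjusted p under 0.05. Its median size was 0.0124 for the 32 genes and 0.0158 for all genes. GLK1, TDH1 and GPM1 lost their calls in that fit, at adjusted p = 0.0593, 0.0526 and 0.0608.

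Genes that lead into, out of and around the pathway were read from lists written from textbook knowledge. Their counts stand beside 21.7% of all genes lower and 22.5% higher. Those shares were 8.93% and 10.2% on arrays 1 and 2 alone, and 24.5% and 22.2% on arrays 3 and 4 alone. No difference between lists was tested. Of the 8 genes listed with the regulators of glycolytic genes, 2 fell and 1 rose. TYE7, which encodes an activator of glycolytic genes, fell by 0.123 ± 0.0944 (adjusted p = 0.0243), and ABF1, a general promoter-binding factor, rose by 0.095 ± 0.0545. The other gene that fell was IBA57 (listed under its older name CAF17) at -0.206 ± 0.059, a mitochondrial iron-sulfur protein gene and no regulator of glycolysis. GCR1, GCR2 and RAP1 did not pass, at -0.0768 (adjusted p = 0.0508), 0.0215 and -0.0279, and were named after their values were seen.

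In glucose signalling 10 of 16 genes fell and 2 rose, with 21.7% and 22.5% over all genes. On arrays 1 and 2 alone the list held 6 calls, all falls, where 8.93% of all genes fell and 10.2% rose. RAS2, a small GTPase upstream of protein kinase A, fell most (-0.307, -0.258, -0.159 and -0.180 on arrays 1 to 4, mean -0.226 ± 0.069, adjusted p = 0.000892). RGT1, the repressor of hexose transporter genes, had a mean of -0.192 ± 0.0567. SNF1, the kinase of glucose derepression, was at -0.173 ± 0.0339, and TPK2, a catalytic subunit of protein kinase A, at -0.136 ± 0.0555. All 4 genes were below 0 on every array. The list's median was -0.094.

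In the gluconeogenesis and glyoxylate list 5 of 9 genes rose and 0 fell in limma (also 5 and 0 at an unadjusted p under 0.05), with a median of 0.0691. Over all genes 22.5% rose and 21.7% fell at the adjusted p. At an unadjusted limma p under 0.05, 3271 of all 6205 genes passed in either direction. MDH2, the cytosolic malate dehydrogenase, had 0.326, 0.272, 0.221 and 0.203 (mean 0.255 ± 0.0552, 1.80-fold higher if base 10, adjusted p = 0.000341). VID24, which takes part in the breakdown of gluconeogenic enzymes, rose by 0.152 ± 0.0691, FBP1, the phosphatase that opposes phosphofructokinase, by 0.130 ± 0.0141, and PCK1, which makes phosphoenolpyruvate from oxaloacetate, by 0.0773 ± 0.0429. The count of rises in this list was 3 without array 1, without array 2 and on arrays 3 and 4 alone, and 2 on arrays 1 and 2 alone.

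Of the 8 genes of the glycerol branch, which draws on triose phosphate, 2 fell and 1 rose. GPD1, the glycerol phosphate dehydrogenase of the osmotic response, had -0.303, -0.424, -0.259 and -0.153 (mean -0.285 ± 0.112, 1.93-fold lower if base 10, adjusted p = 0.00118), while its paralog GPD2 rose by 0.1 ± 0.0493 (adjusted p = 0.0156). Their arrays did not overlap. GUT1, the glycerol kinase, fell by 0.0656 ± 0.0215 (adjusted p = 0.0425). The list held 1 call without array 1, without array 4 and on arrays 1 and 2 alone.

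In the pentose phosphate pathway 2 of 11 genes fell and 1 rose, shares at or below those of all genes. On arrays 3 and 4 alone the list held 8 calls, 5 of them falls, where 24.5% of all genes fell and 22.2% rose. ZWF1, its entry enzyme, fell by 0.197 ± 0.0308 (adjusted p = 0.000546) and TKL1, the main transketolase, by 0.114 ± 0.0312, while SOL3, a phosphogluconolactonase, rose by 0.157 ± 0.0786. In the acetate and acetyl-CoA list 2 of 8 fell and 1 rose. Arrays 1 and 2 alone gave 1 call, where 8.93% of all genes fell and 10.2% rose. ACS2, the acetyl-CoA synthetase used on glucose, fell by 0.178 ± 0.0355, ACH1, a mitochondrial CoA transferase, fell by 0.137 ± 0.0487, and ALD3, a stress-induced aldehyde dehydrogenase, rose by 0.126 ± 0.0282.

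Among genes of pyruvate use in mitochondria 2 of 11 rose and 1 fell. Arrays 3 and 4 alone gave 5 calls, 3 of them falls, where 24.5% of all genes fell and 22.2% rose. MPC2, a subunit of the mitochondrial pyruvate carrier, had 0.362, 0.462, 0.347 and 0.406 (mean 0.394 ± 0.0515, 2.48-fold higher if base 10, adjusted p = 5.69e-05), larger in size than any of the 32 glycolytic and fermentative genes. MPC1, its partner subunit, rose by 0.129 ± 0.0372. LPD1, the dihydrolipoamide dehydrogenase shared by several mitochondrial complexes, fell by 0.205 ± 0.0589. MPC3, the carrier subunit used in respiratory growth, had 0.0569 and did not pass (adjusted p = 0.127), and was named after its value was seen.

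Of 7 other alcohol dehydrogenase genes, 2 fell and 2 rose. ADH6, an NADPH-dependent enzyme, had -0.175, -0.222, -0.343 and -0.350 (mean -0.272 ± 0.0877, 1.87-fold lower if base 10), and SFA1, which acts on formaldehyde and longer alcohols, fell by 0.129 ± 0.033. SOR1, a sorbitol dehydrogenase with a near-identical copy, rose by 0.225 ± 0.12, and BDH1, a butanediol dehydrogenase, by 0.172 ± 0.0241. Among 5 genes of NADH shuttles and oxidation, the mitochondrial malate dehydrogenase gene MDH1 (a mean of -0.147 ± 0.057) and the internal NADH dehydrogenase gene NDI1 (-0.0761 ± 0.0402) fell. The peroxisomal malate dehydrogenase gene MDH3 rose by 0.0722 ± 0.0396 and the external NADH dehydrogenase gene NDE2 by 0.0713 ± 0.0169. This list held 1 call without array 1, 3 or 4, and 2 without array 2 and on arrays 3 and 4 alone. On arrays 1 and 2 alone it held 0 in limma. At an unadjusted limma p under 0.05 those arrays gave 1 fall and 2 rises. The share of all genes at that unadjusted p was not counted.

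**Figure D4:**
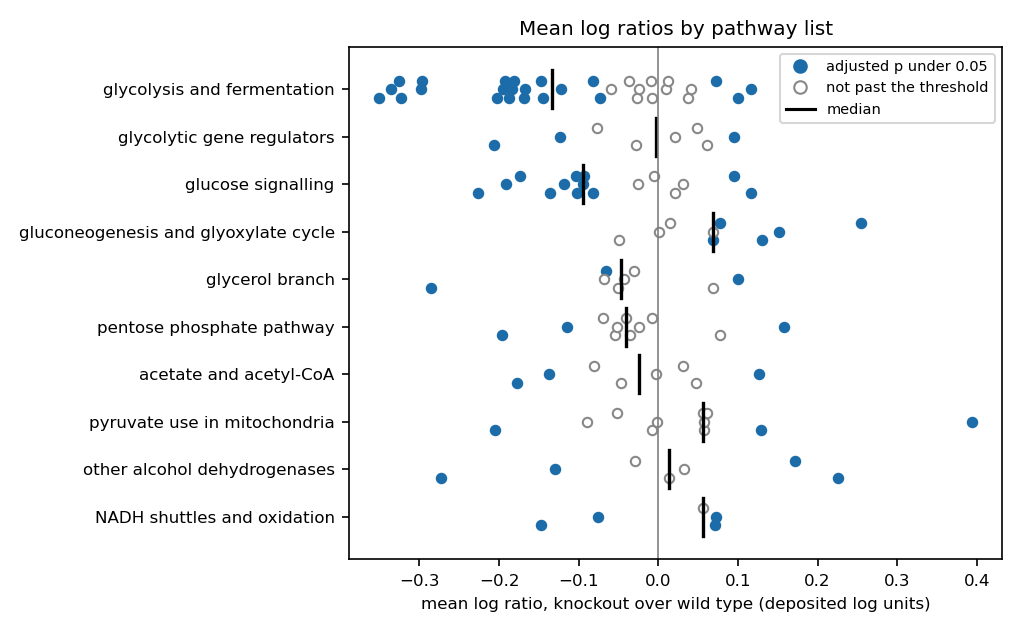
Mean log ratio of knockout over wild type in deposited log units (horizontal axis) for the 32 genes (top row) and the 9 pathway lists, with 1 point per gene, filled where the adjusted p was under 0.05, and a black bar at each median. The top row has its median at -0.134, and the list of gluconeogenesis and the glyoxylate cycle has its median at 0.0691.

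At the edge of the threshold, PFK27, TDH1, ADH3, GPM1 and GLK1 had the largest adjusted p among the calls (0.0221 to 0.0319), and TDH2 (0.0561), TPI1 (0.178) and PFK26 (0.254) had the smallest among the genes that did not pass. All 5 lost their call without at least 1 array. The other 17 calls, 16 falls and the rise of ALD4, were made with all arrays and without each array in turn. Of these, 13 falls also passed with centring, scaling, the term for the deposited direction, the stricter filters and either pair of arrays: ADH1, ADH2, ADH5, CDC19, EMI2, ENO1, ENO2, FBA1, PDC1, PDC5, PFK1, PGK1 and PYK2. With the dye labels setting the direction, under which LOC1 itself cancels, none of the 32 genes passed.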

How the data were processed

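Per the labels' protocols, hot phenol was used to isolate the RNA, an oligo-dT primer to copy it, and Klenow polymerase with random primers to add Cy5 or Cy3. The authors deposited 1 log ratio per gene and array, used here as log10 values. The scanner, background correction, normalization, log base and probe positions are unstated in the sources used here. The values end exactly at a size of 2, which no member reached, and the next largest size was 1.41. Single spots were not used, and precision is limited by the number of arrays.

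The 3 control rows of 6210 were left out. Each column was turned so that LOC1 lay below 0. No centring was applied. Genes with a value on at least 3 arrays (6205) were fitted with limma 3.58.1 (lmFit, then eBayes; R 4.3.3), as 1 mean against 0, two-sided, with Benjamini-Hochberg adjustment over all of them. The fit was also run on simulated data with independent genes, far fewer of them changed than were called here. That run is no check on the calls made here. Symbols came from a RefSeq gene table (assembly R64), which matched 5654 of 6207 locus tags and all members.

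The members and lists were chosen with earlier results of these data known. All 32 members were named, with LOC1. From each list came up to 4 genes past the threshold with 1 sign on every array and the largest size, or, with fewer than 2 of these, the 2 genes lowest in p. Alternatives were centring, scaling, a term for the deposited direction, stricter filters, pairs of arrays, leaving out each array and an ordinary t statistic. In another, the dye labels set the direction, and neither LOC1 nor any member passed.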

Additional observations from a re-analysis of the deposited data

Results flagged for a closer look

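Of 82 genes and pair differences checked over the 4 arrays, 4 had 1 array far from the other arrays by Dixon's ratio at its 95% critical value, which chance gives in about 1 of 20 such groups. ALD6 minus ALD4 was -0.164 on array 2, against -0.328 to -0.312 on the other arrays. CDC19 minus PYK2 was 0.0223 on array 1 and between -0.0591 and -0.0531 elsewhere. MPC1 had 0.0736 on array 1, against 0.140 to 0.152 on the other arrays. GUT1 had -0.0977 on array 2, and -0.0576 to -0.0521 on the other arrays.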

How the results depend on the processing

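The count of members that fell stayed within 14 to 20 under centring, scaling, the term for the deposited direction, stricter filters, each left-out array (16 to 18), either pair of arrays and an ordinary t statistic. With arrays turned by the dye labels 0 fell and 0 rose, but LOC1 itself cancels under that setting. The count of rises was 1 to 2 with an array left out and 0 on arrays 1 and 2 alone, where 8.93% of all genes fell and 10.2% rose. The median of the member means was -0.133 to -0.123 with an array left out and -0.102 on arrays 3 and 4 alone. Members that changed sign had not passed with all arrays: HXK1 (0.0356) and GPM3 (-0.0137) on arrays 3 and 4 alone, and HXK2 (0.0139), GPM2 (-0.0603), PDC6 (0.023) and ADH4 (0.0259) on arrays 1 and 2 alone. With an array left out HXK2 ran from -0.0269 to 0.00477, GPM2 from -0.0243 to 0.0592, GPM3 from -0.0408 to 0.0451 and PDC6 from -0.0246 to 0.00532. HXK2 minus HXK1 ran from -0.0202 to 0.0685 and PFK1 minus PFK2 from -0.0491 to 0.000717. Arrays 1 and 2 alone gave 6 calls in glucose signalling, 2 in gluconeogenesis, 1 in the glycerol branch, 1 in acetate and acetyl-CoA and 0 in NADH shuttles. Arrays 3 and 4 alone gave 8 in the pentose phosphate pathway, 5 in pyruvate use, 3 in gluconeogenesis and 2 in NADH shuttles. On those arrays 24.5% of all genes fell and 22.2% rose. With an array left out the counts were 3 to 4 for gluconeogenesis, 1 to 3 for the glycerol branch and 1 to 2 for NADH shuttles. The share of all genes called with an array left out was not counted. The pairs of arrays have fewer samples, and the cause of the other changes was not tested. Knockout and wild type were paired within each array by the ratio itself, and with 1 group of ratios no further pairing was possible.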
